A study of Mus musculus with 10 samples.

Results

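The genes described here make, remove, carry and sense retinoic acid, and 10 were taken by symbol in the GENCODE mouse release 21 annotation: Rdh10, Dhrs3, Aldh1a2, Aldh1a3, Cyp26a1, Cyp26b1, Cyp26c1, Crabp1, Crabp2 and Rarb. All 10 were among the 18381 genes of the table and all 10 passed the filter on low counts. They were measured in RNA of the first lower molar of wild type C57BL/6JOlaHsd mouse embryos at embryonic day 14, dissected and kept for 6 h in hanging drops. Of each embryo, 1 tooth received medium with mouse recombinant IGF1 (insulin-like growth factor 1) at 750 ng per ml, dissolved in phosphate-buffered saline with bovine serum albumin, and the other tooth received the same volume of that solution without IGF1 (control). There were 5 embryos, numbered 1, 2, 3, 4 and 6, so each group had 5 teeth, each handled as a library of its own. The comparison asks how a short exposure to IGF1 changed gene expression in the whole tooth, epithelium and mesenchyme together.

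Retinoic acid is made from vitamin A in a pair of steps. Retinol is first oxidised to retinal, in the embryo mainly by Rdh10, and Dhrs3 turns retinal back to retinol. Aldehyde dehydrogenases of the Aldh1a family then oxidise retinal to retinoic acid, the P450 enzymes of the Cyp26 family degrade it, and the cellular retinoic acid binding proteins Crabp1 and Crabp2 carry it inside the cell. Retinoic acid acts in the nucleus through the receptors Rara, Rarb and Rarg, which pair with retinoid X receptors. Genes such as Cyp26a1, Dhrs3 and Rarb are themselves induced by it in many tissues. These are examples and not a full list, and a response to retinoic acid was not tested here. In the developing face and tooth the pathway is known for its part in patterning, where sources and sinks of retinoic acid lie next to each other.

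The control teeth had total counts of 2845773 to 8403151 and the IGF1 teeth of 3456634 to 8763113, and both teeth of embryo 1 had the lowest total of their group. Both tissues of a tooth germ were represented, with 15 of 15 epithelial and 15 of 15 mesenchymal markers past the filter on low counts, which does not tell a molar from other organs that hold both. Summed epithelial markers (Krt14, Cdh1 and others) ran from 2460 to 3770 CPM (counts scaled to a common library size) in the control teeth and from 2760 to 3820 with IGF1. Of the 15, 1 changed, Krt5, which was higher (log2 fold change 0.43), and the median over the list was -0.00726. Summed mesenchymal markers (Msx1, Twist1, Col3a1 and others) ran from 7460 to 9650 in the control teeth and from 6910 to 9590 with IGF1. Abundant genes weigh most in this sum, with control means of 2250 CPM for Col3a1 and 264 for Msx1. Of the 15, 2 were lower, Vim (log2 fold change -0.42) and Pdgfra (-0.53), and the median over the list was -0.113. In whole teeth, fewer cells of a type and less RNA per cell cannot be told apart, and the part of cell composition in the results below was not tested.

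Of the 10 genes, 7 changed with IGF1, 5 lower and 2 higher, at an adjusted p-value under 0.05 by the quasi-likelihood test of edgeR, with embryo as a block and Benjamini-Hochberg adjustment over all genes tested. The background is 11.5% of the 14504 genes tested, or 4.76% lower and 6.72% higher, against 70.0% of the retinoic acid genes. The enzymes Rdh10, Dhrs3, Aldh1a3, Cyp26a1 and Cyp26b1 fell, and the binding proteins Crabp1 and Crabp2 rose. The 3 genes that did not pass were Aldh1a2, Cyp26c1 and Rarb. The median log2 fold change was -0.48 over the 10 genes and -0.0038 over all genes tested. In 6 of the 7 changed genes all 5 embryos moved the same way. The test with embryo as a block itself favours such genes, and the share over all genes is not given here, so this count is a description only. In 4 of the 10 (Cyp26b1, Aldh1a3, Rdh10 and Crabp2) the CPM values of the groups did not overlap, which was so for 7.25% of all genes tested (3.03% with IGF1 lower and 4.21% with IGF1 higher). The count of 7 fell to 3 without embryo 4 and to 4 without embryo 6.

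**Figure D1:**
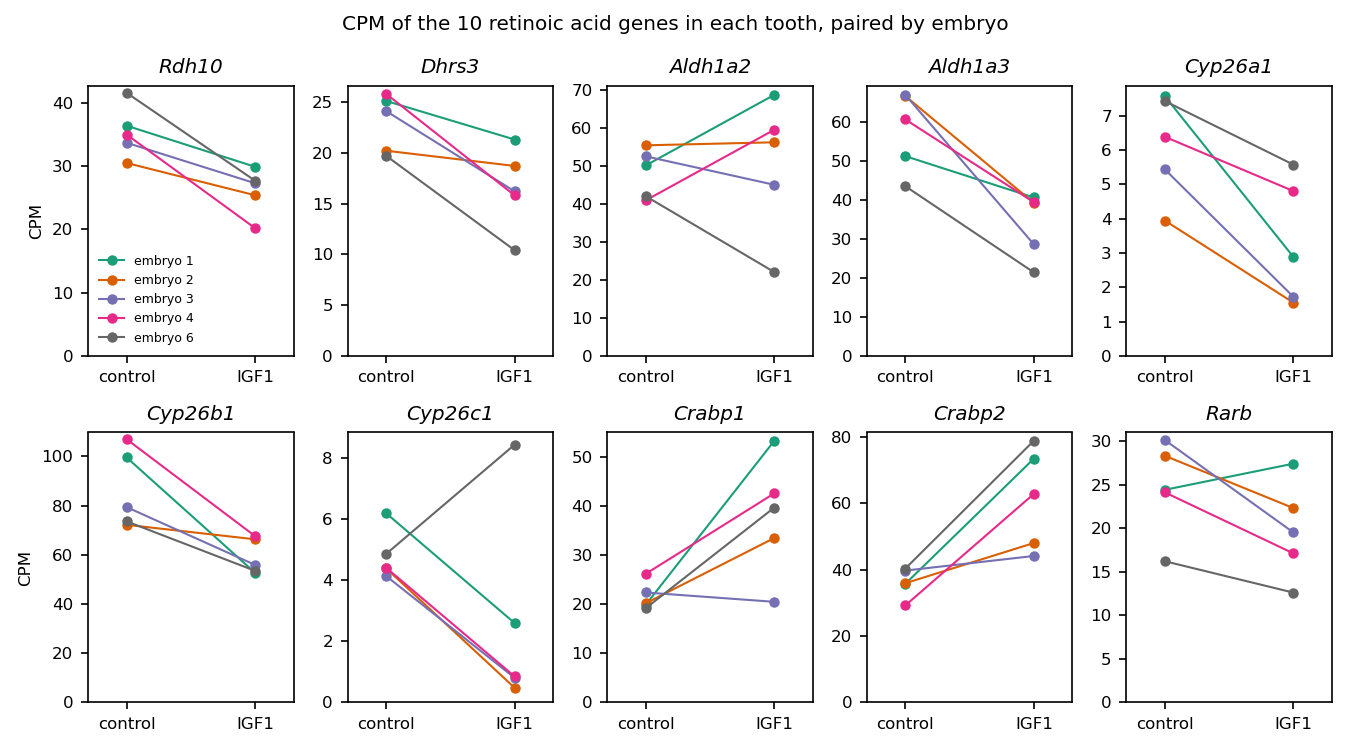
CPM (vertical axis from 0) of each gene in the control and the IGF1 tooth, with a line joining the 2 teeth of each embryo. Rdh10, Dhrs3, Aldh1a3, Cyp26a1 and Cyp26b1 fall in 5 of 5 embryos, Crabp2 rises in 5 of 5, and for Cyp26c1 embryo 6 runs against the other 4.

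In the control teeth, levels per kb of annotated exon were highest for the binding proteins. Crabp2 stood at 27.4 ± 3.34 CPM per kb (SD, n = 5) and Crabp1 at 26.9 ± 3.57, followed by Aldh1a2 at 21.3 ± 2.84, Cyp26b1 at 16.1 ± 2.96, Aldh1a3 at 12.5 ± 2.21, Rdh10 at 8.52 ± 0.983, Dhrs3 at 7.85 ± 0.973, Rarb at 4.68 ± 1.02, Cyp26a1 at 3.1 ± 0.758 and Cyp26c1 at 2.74 ± 0.47. Each gene overlapped in range with the next in this order except Dhrs3 and Rarb, whose control ranges were apart. Among all genes tested, Crabp2 was at percentile 90.0 of the level per kb and Cyp26c1 at percentile 23.8. Exon length here joins the exons of all annotated transcripts, so it is longer than any single transcript of genes with several.

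Of the 3 genes of synthesis, Rdh10 and Aldh1a3 were lower with IGF1 and Aldh1a2 did not pass. Rdh10 (ENSMUSG00000025921, chromosome 1, 16105774 to 16133734, GRCm38) had 36.4, 30.5, 33.7, 35.0 and 41.6 CPM in the control teeth of embryos 1, 2, 3, 4 and 6, and 29.9, 25.4, 27.3, 20.2 and 27.7 in their IGF1 teeth. Every IGF1 tooth was below every control tooth, though the lowest control (30.5) lay close to the highest IGF1 value (29.9). Rdh10 fell by 0.45 on the log2 scale (SE 0.10, adjusted p = 0.0196), or by 26.7%. The call was lost without embryo 4 (adjusted p = 0.0753) or embryo 6 (0.0764), where the log2 fold changes were -0.36 and -0.42.

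Dhrs3 (ENSMUSG00000066026, chromosome 4, 144892827 to 144928209), which works in the opposite direction to Rdh10 and is known to form a complex with it, was also lower. Its control teeth had 25.1, 20.2, 24.1, 25.8 and 19.7 CPM and its IGF1 teeth 21.3, 18.7, 16.2, 15.8 and 10.4. The groups overlapped, since the IGF1 tooth of embryo 1 lay above the control teeth of embryos 2 and 6, but each tooth was below its own control. Dhrs3 fell by 0.51 on the log2 scale (SE 0.13, adjusted p = 0.0331). It did not pass without embryo 3 (adjusted p = 0.0709), 4 (0.121) or 6 (0.109), without the embryo block (0.113) or by DESeq2's Wald test (0.0513), with log2 fold changes from -0.62 to -0.42 over all alternatives.

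Aldh1a3 (ENSMUSG00000015134, chromosome 7, 66390890 to 66427517), the aldehyde dehydrogenase known from epithelia of the eye and nose, had the lowest p-value of the 10 genes. The control teeth of embryos 1, 2, 3, 4 and 6 had 51.2, 66.6, 66.9, 60.6 and 43.5 CPM, and the IGF1 teeth 40.6, 39.2, 28.6, 39.4 and 21.4. No IGF1 tooth reached the lowest control, and the smallest difference was in embryo 1 (log2 ratio -0.33) and the largest in embryo 3 (-1.22). Aldh1a3 fell by 0.81 on the log2 scale (SE 0.12, adjusted p = 0.00171), or by 42.8%, and was past the threshold in all 11 alternatives (adjusted p from 8.29e-07 to 0.017).

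Aldh1a2 (ENSMUSG00000013584, chromosome 9, 71215789 to 71296243), the main retinoic acid producing enzyme of embryonic mesenchyme, did not pass. Its control teeth had 50.2, 55.5, 52.6, 41.0 and 42.1 CPM and its IGF1 teeth 68.8, 56.3, 45.1, 59.6 and 22.1. The IGF1 teeth spread to both sides of the controls, with 3 embryos higher and 2 lower, and embryo 6 had the lowest value of the 10 teeth. The log2 fold change was -0.02 (SE 0.17, adjusted p = 0.962), and it turned positive without embryo 3 (0.03), without embryo 6 (0.18) and without the embryo block (0.05). Per kb, Aldh1a2 made up 58.0% to 66.6% of the sum of Aldh1a2 and Aldh1a3 in the control teeth and 67.8% to 77.6% in the IGF1 teeth. These shares did not overlap, and the difference between the 2 genes' responses was not tested.

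Of the 3 breakdown enzymes, Cyp26b1 and Cyp26a1 were lower and Cyp26c1 did not pass, and Cyp26b1 was the most abundant. Cyp26b1 (ENSMUSG00000063415, chromosome 6, 84571414 to 84593908) had 99.6, 72.2, 79.4, 107 and 73.6 CPM in the control teeth and 52.7, 66.3, 55.9, 67.6 and 53.5 in the IGF1 teeth. The highest IGF1 value was below the lowest control, although embryo 2 differed little (log2 ratio -0.12). Cyp26b1 fell by 0.52 on the log2 scale (SE 0.10, adjusted p = 0.00825), or by 30.3%, and was past the threshold in all 11 alternatives (adjusted p from 0.000516 to 0.0417).

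Cyp26a1 (ENSMUSG00000024987, chromosome 19, 37697798 to 37701536) was rare, with 10 to 49 counts per tooth. Its control teeth had 7.56, 3.94, 5.43, 6.38 and 7.42 CPM and its IGF1 teeth 2.88, 1.55, 1.72, 4.80 and 5.57. All 5 embryos were lower with IGF1, with log2 ratios near -1.31 (embryo 1), -1.20 (embryo 2), -1.50 (embryo 3), -0.39 (embryo 4) and -0.40 (embryo 6), and the groups overlapped. Cyp26a1 fell by 0.97 on the log2 scale (SE 0.26, adjusted p = 0.0362). The call was lost whichever embryo was left out (adjusted p from 0.0502 without embryo 6 to 0.0984 without embryo 3), without the embryo block (0.175) and by DESeq2's Wald test (0.0513). Its log2 fold changes ran from -1.15 to -0.80 over all alternatives.

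Cyp26c1 (ENSMUSG00000062432, chromosome 19, 37685581 to 37693398) is the neighbour of Cyp26a1, with gene starts 12217 bases apart on the same strand. It had 4 to 59 counts per tooth, with 6.18, 4.38, 4.13, 4.40 and 4.85 CPM in the control teeth and 2.59, 0.475, 0.803, 0.847 and 8.42 in the IGF1 teeth. In 4 embryos the IGF1 tooth was below every control tooth, and in embryo 6 it was above every control tooth. The log2 fold change of Cyp26c1 was the largest of the 10 genes in size but did not pass (-1.38, SE 0.51, adjusted p = 0.105). It passed without embryo 6 (-2.24, adjusted p = 0.00832) and by DESeq2's Wald test on all embryos (-1.61, adjusted p = 0.0198), while the highest adjusted p over the alternatives was 0.475.

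The start regions of Cyp26a1 and Rarb are shown because they hold the classic element bound by retinoic acid receptors. Promoters of RefSeq transcripts (GRCm38.p6), from 250 bases before to 50 bases after the start, were found for 7 of the 10 genes, with 9 starts in all. None was found for Rdh10, Aldh1a3 or Crabp2, so these were not searched. Both strands were searched for a pair of half-sites, each either AGGTCA or AGTTCA or GGGTCA or GGTTCA, in the same orientation and 1, 2 or 5 bases apart (DR1, DR2 and DR5). A DR5 was found at the start of Cyp26a1 and of Rarb, no DR1 or DR2 was found, and none of the 3 was found at the starts of Cyp26b1, Cyp26c1, Aldh1a2, Dhrs3 or Crabp1. Of 32851 promoters of the same length, 0.0974% held a DR5, 0.268% a DR2 and 0.222% a DR1. The Rarb window holds 3 half-sites, of which GGGTCA lies outside the repeat and is left in lower case. A match describes the letters only, and a window without one says nothing of elements further away. The RefSeq starts used for Cyp26a1 and Rarb are not the gene ends given in this text. That of Rarb is internal, since its window ends at 16575726 and the gene, on the minus strand, begins at 16819156. The 100 bases before the start are given 5′ to 3′ on the strand of the gene, with the half-sites of the DR5 in capitals, for Cyp26a1 at chr19:37697708-37697807 (plus strand) and for Rarb at chr14:16575477-16575576 (minus strand).
Cyp26a1: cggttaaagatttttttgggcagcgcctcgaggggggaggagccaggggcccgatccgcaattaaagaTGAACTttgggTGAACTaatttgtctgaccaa
Rarb: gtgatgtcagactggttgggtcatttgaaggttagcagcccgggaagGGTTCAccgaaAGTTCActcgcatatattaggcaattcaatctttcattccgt

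The elements lie at chr19:37697776-37697792 for Cyp26a1, which is 32 to 16 bases before the start, and at chr14:16575513-16575529 for Rarb, 53 to 37 bases before the start. Read on the strand of their half-sites they are compared here, with the spacer in lower case.
Cyp26a1: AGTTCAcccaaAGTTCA
Rarb: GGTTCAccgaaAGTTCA

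Rarb (ENSMUSG00000017491, chromosome 14, 16430839 to 16819156), the receptor gene that retinoic acid induces, had 24.4, 28.3, 30.1, 24.1 and 16.2 CPM in the control teeth and 27.4, 22.3, 19.5, 17.1 and 12.6 in the IGF1 teeth. It was lower with IGF1 in embryos 2, 3, 4 and 6 and higher in embryo 1, and the groups overlapped. The log2 fold change of Rarb was -0.36 (SE 0.12, adjusted p = 0.0907), past the threshold without embryo 1 (-0.46, adjusted p = 0.039) and in none of the other 10 alternatives. The last exon of Rarb lies within an exon of Top2b on the opposite strand. Since strand use in counting is not given in the sources used here, reads of the pair might not be told apart. Top2b had a log2 fold change of 0.02 (adjusted p = 0.912).

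The binding proteins moved the other way. Crabp2 (ENSMUSG00000004885, chromosome 3, 87948666 to 87953376), which brings retinoic acid to its receptors in the nucleus, had 35.7, 35.9, 39.7, 29.2 and 40.3 CPM in the control teeth and 73.4, 48.0, 44.1, 62.8 and 78.8 in the IGF1 teeth. Every IGF1 tooth was above every control tooth, and the rise was smallest in embryo 3. Crabp2 rose by 0.72 on the log2 scale (SE 0.14, adjusted p = 0.00699), or 1.65-fold, and was past the threshold in all 11 alternatives (adjusted p from 6.35e-05 to 0.036).

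Crabp1 (ENSMUSG00000032291, chromosome 9, 54764748 to 54773110), which holds retinoic acid in the cytoplasm, had 19.9, 20.2, 22.4, 26.2 and 19.2 CPM in the control teeth and 53.3, 33.5, 20.5, 42.6 and 39.7 in the IGF1 teeth. In 4 embryos the IGF1 tooth was above every control tooth, and in embryo 3 it was slightly below its own control (log2 ratio -0.13). Crabp1 rose by 0.73 on the log2 scale (SE 0.17, adjusted p = 0.0219). Without embryo 1, 2, 4 or 6 it did not pass (adjusted p = 0.0656, 0.0516, 0.0692 and 0.083), with log2 fold changes from 0.59 to 0.74 in these fits.

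**Figure D2:**
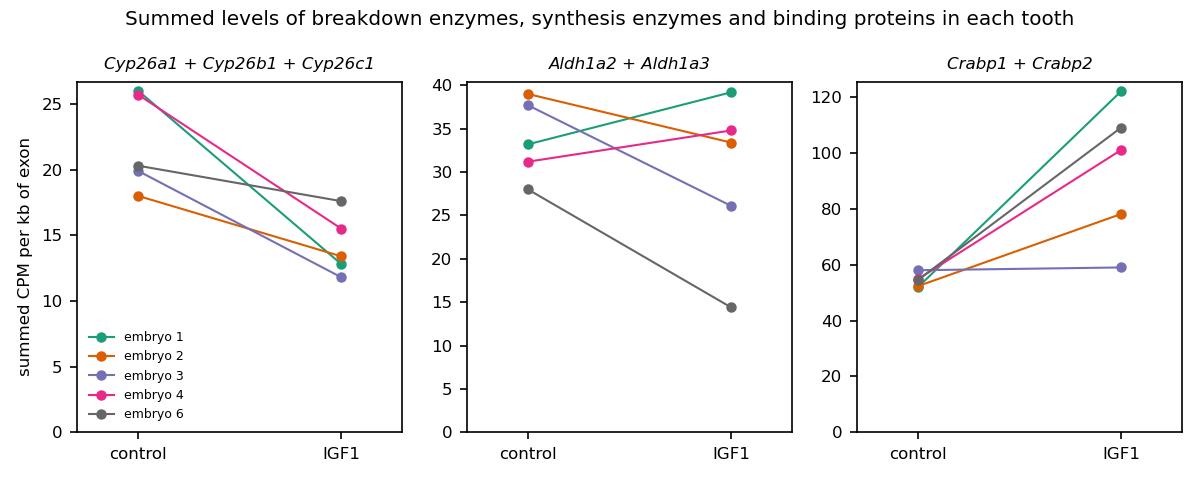
Summed levels in CPM per kb of exon (vertical axes from 0) of the Cyp26 genes, of Aldh1a2 with Aldh1a3, and of Crabp1 with Crabp2, in the control and the IGF1 tooth of each embryo, joined by lines. The Cyp26 sum is lower with IGF1 in every embryo (18.0 to 26.0 against 11.8 to 17.6), the Aldh1a sum overlaps, and the Crabp sum is higher (51.9 to 58.0 against 59.0 to 122).

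Put together by role after the values had been seen, and so with no test, the 3 Cyp26 genes summed to 22.0 ± 3.64 CPM per kb in the control teeth and 14.2 ± 2.32 in the IGF1 teeth (SD, n = 5). The sum of Aldh1a2 and Aldh1a3 was 33.8 ± 4.56 and 29.6 ± 9.71, a difference smaller than the spread between the IGF1 teeth. Crabp1 and Crabp2 summed to 54.3 ± 2.44 in the control teeth and 93.8 ± 25.2 with IGF1. The Crabp sum was thus 2.0 to 2.91 times the Cyp26 sum in the control teeth and 5.01 to 9.54 times in the IGF1 teeth. The Aldh1a sum was 1.22 to 2.17 times the Cyp26 sum in the control teeth and 0.817 to 3.07 times with IGF1, so this ratio overlapped. Cyp26b1 made up 67.9% to 77.7% of the Cyp26 sum in the control teeth and from 56.7% (embryo 6) to 92.2% (embryo 2) with IGF1.

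The 5 embryos did not show the same profile. Embryo 3 had the largest fall of Aldh1a3 and Cyp26a1 and almost no change of Crabp1 and Crabp2 (log2 ratios -0.13 and 0.15), while embryo 1 had the largest fall of Cyp26b1 (-0.92) and the largest rise of Crabp1 (1.41). Embryo 6 had the largest falls of Dhrs3 (-0.90) and Aldh1a2 (-0.92) and the only rise of Cyp26c1 (0.76). Hypoxia response genes (Vegfa, Ldha, Bnip3 and others, 13 of 14 tested higher) also differed between embryos. Their summed CPM rose by a log2 ratio of 2.40 in embryo 2 and 2.24 in embryo 3, against 0.70, 0.88 and 0.98 in embryos 1, 4 and 6. Embryo 3 had the log2 ratio largest in size for summed epithelial (0.356), mesenchymal (-0.366), endothelial (-0.467) and erythroid markers (-0.839). Embryo 2 had it for macrophage (-0.465) and bone and cartilage markers (0.649), and embryo 1 for Schwann cell markers (-0.381). The mesenchymal sum was lower in 4 of 5 embryos and the epithelial sum in 2. For Crabp2 the log2 ratios were 1.03, 0.42, 0.15, 1.10 and 0.96 in embryos 1, 2, 3, 4 and 6. Only for Crabp2 did the ratios of embryos 2 and 3 lie apart from those of embryos 1, 4 and 6. For the other 9 of the 10 genes they did not. The part of the hypoxia response or of cell composition in any of these values was not tested.

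Of the marker lists of other cell types, those of endothelial and erythroid cells had lower sums with IGF1 in every embryo. Endothelial markers summed to 375 to 429 CPM in the control teeth and 303 to 399 with IGF1, lower in 5 of 5 embryos, with Cdh5 and Esam the 2 lower of 8 tested. Erythroid markers (globins and others) summed to 849 to 1420 and 604 to 1110, lower in 5 of 5 embryos, with 5 of 6 tested lower. Macrophage markers summed to 56.0 to 78.9 and 51.5 to 76.9 (1 of 6 lower), Schwann cell markers to 77.5 to 103 and 74.5 to 84.0 (0 of 3 changed), and bone and cartilage markers to 294 to 596 and 245 to 935 (1 of 6 higher, Sox9). The Schwann markers Sox10 and Foxd3 and the bone marker Bglap were among those too low to be tested, these 3 with at most 22 counts in any tooth. The part of these cells in the results was not tested.

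Beyond the 10 genes, 70 genes of the pathway were listed, of which 51 were in the table and 36 were tested. Of these, 3 were higher, 3 lower and 30 did not pass, a share called of 16.7% against the background of 11.5%. Among the receptors, Rarg stood at 27.4 CPM per kb in the control teeth (range 22.9 to 32.8), Rxra at 23.6 (18.4 to 28.9), Rara at 19.2 (15.6 to 21.0) and Rxrb at 7.38 (5.70 to 9.51), so the control ranges of Rara and Rarg lay above that of Rarb (3.08 to 5.72). Their log2 fold changes were 0.02 for Rarg, -0.04 for Rxra, -0.06 for Rara and 0.05 for Rxrb, none past the threshold.

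Fabp5, a fatty acid binding protein that can carry retinoic acid to the receptor Ppard, had the largest change of the 36. It had 70.0 to 105 CPM in the control teeth and 181 to 352 in the IGF1 teeth, with no overlap, and rose 2.77-fold (log2 fold change 1.47, SE 0.18, adjusted p = 0.000681). Ppard itself had 16.7 to 36.4 and 25.8 to 35.7 CPM and rose by 0.47 on the log2 scale (SE 0.13, adjusted p = 0.0378), higher in 4 of 5 embryos. Rdh11, from the list of other enzymes of retinol and retinal, had 25.4 to 34.6 and 43.4 to 51.7 CPM. It rose by 0.61 on the log2 scale (SE 0.10, adjusted p = 0.00256), while Rdh10 and Dhrs3 both fell. The other 9 enzymes of retinol and retinal tested did not pass, nor did Dgat1, which can esterify retinol (log2 fold change 0.03).

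Of 11 receptor coregulators tested, 2 were lower and 9 did not pass. Nrip1, a corepressor that binds the receptors in the presence of retinoic acid, had 150 to 164 CPM in the control teeth and 111 to 128 with IGF1, and fell by 0.39 on the log2 scale (SE 0.06, adjusted p = 0.00297). Ncoa2, a coactivator, had 252 to 288 and 210 to 235 CPM and fell by 0.26 (SE 0.06, adjusted p = 0.0227). Of 7 other genes known to respond to retinoic acid, 1 was lower, Nav2, a neuron navigator gene, with 197 to 267 and 168 to 203 CPM and a log2 fold change of -0.32 (SE 0.08, adjusted p = 0.0231). The median over these 7 was -0.23, with Meis1 (0.13), Meis2 (0.15) and Btg2 (0.20) above 0 and Tgm2 (-0.26), Nr2f1 (-0.40) and Nr2f2 (-0.23) below, none of which passed. Aldh1a1, the third retinal dehydrogenase, had 0 to 4 counts per tooth, Stra6, the membrane receptor for retinol uptake, 2 to 16, and Rxrg 0 to 13, so these were too low to be tested.

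**Figure D3:**
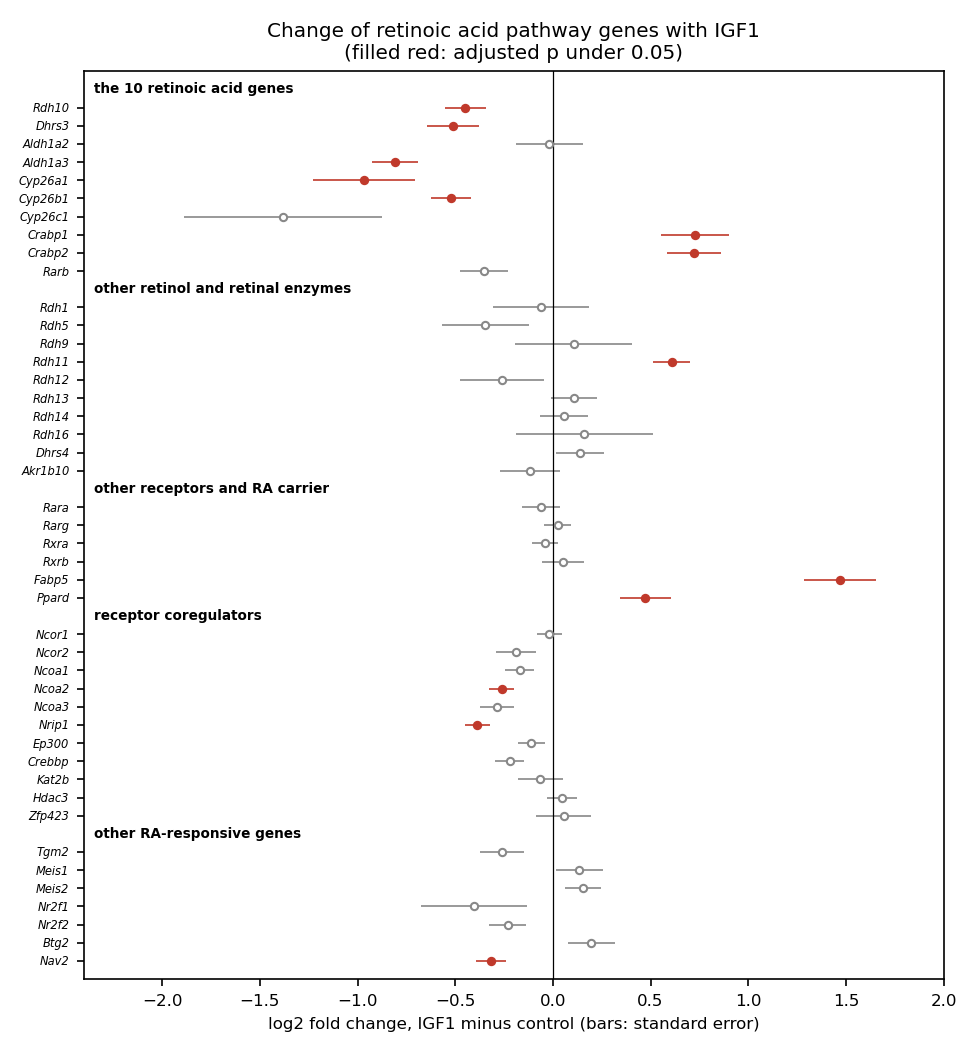
Log2 fold change (IGF1 minus control, horizontal axis) with its standard error for the 10 genes and for the enzymes, receptors and carriers, coregulators and responsive genes tested beside them, grouped by role, with filled red points at an adjusted p under 0.05. Fabp5 is farthest to the right at 1.47, Cyp26c1 farthest to the left at -1.38 with the widest bar, and Rara, Rarg, Rxra and Rxrb lie between -0.06 and 0.05.

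The chromosomal neighbourhoods of the 10 genes changed about as often as other genes. Taking the lower chromosome coordinate of each gene as its position, whatever its strand, within 500 kb on either side lay 64 distinct protein coding genes that were tested, the 10 genes aside, and 4 of them were higher and 3 lower (10.9%, against 11.5% of all genes). By the 5′ end of each gene instead, chosen after seeing the data, 4 of 59 were higher and 2 lower (10.2%), without Cgnl1. Around Cyp26a1 and Cyp26c1 the 1 other changed gene was Ide (log2 fold change 0.52, adjusted p = 0.00313), an insulin-degrading protease on chromosome 19 from 37268743 to 37337852, which moved in the opposite direction. The only neighbour of Cyp26b1, Exoc6b, was lower (-0.28, adjusted p = 0.0213). The others were Cgnl1 near Aldh1a2 (-0.65, adjusted p = 0.000387), Selenos near Aldh1a3 (0.53, 0.0126), and near Crabp1 Idh3a (0.28, 0.0421), Psma4 (0.26, 0.0414) and Gldn (-0.97, 0.0326). No tested neighbour of Rdh10, Dhrs3, Rarb or Crabp2 changed.

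Over the 10 teeth, the levels of some of the genes ran together. The highest Pearson correlations of log2 CPM among them were 0.87 for Aldh1a3 with Dhrs3, 0.83 for Crabp1 with Crabp2, 0.82 for Dhrs3 with Rarb, 0.805 for Aldh1a3 with Rarb and 0.798 for Cyp26a1 with Cyp26c1, and the lowest was -0.83 for Cyp26b1 with Crabp2. These are descriptions over 10 teeth of 5 embryos that share the treatment, so the change with IGF1 is part of every such value. Among all genes tested, those most like Crabp2 included Cks1b (r = 0.975) and Pcna (0.972), and those most like Crabp1 were Sulf2 (0.968), Elovl1 (0.960) and Klf16 (0.957). Most like Aldh1a3 were Mxra8 (0.945), Abca8a (0.945) and Bnc2 (0.939), most like Dhrs3 were Gm45140 (0.965), Plat (0.957) and Cpne8 (0.953), and most like Rdh10 were Kat6a (0.942), Tsc22d1 (0.932) and Rin2 (0.931). For Cyp26b1 they were Tnip1 (0.960), Vps11 (0.952) and Pxk (0.939), and for Cyp26a1 Shmt1 (0.956), Eps8l1 (0.949) and Aff3 (0.949).

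**Figure D4:**
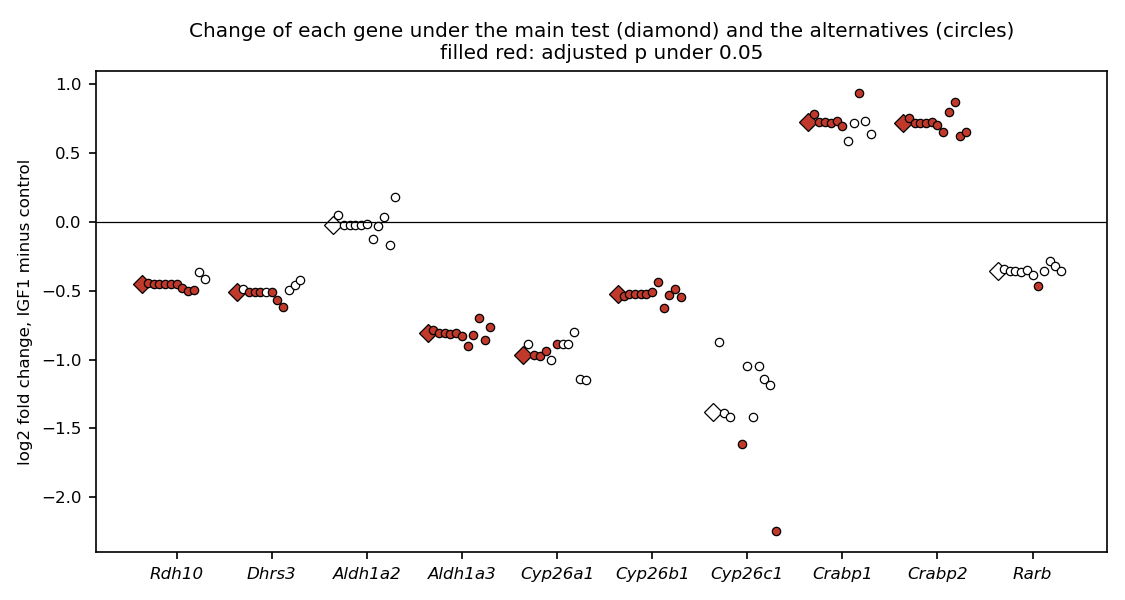
Log2 fold change (IGF1 minus control, vertical axis) of each gene in the main test (diamond) and in the alternatives (circles), filled red at an adjusted p under 0.05. Cyp26b1, Aldh1a3 and Crabp2 are filled throughout, Cyp26a1, Dhrs3, Rdh10, Crabp1, Cyp26c1 and Rarb in part, and Aldh1a2 in none, which lies on both sides of 0.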

How the data were processed

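RNA of 10 molars was sequenced from Ovation Mouse RNAseq libraries. The authors deposited estimated counts per gene as whole numbers, and the submitters' processing notes name FastQC 0.11.8, Trimmomatic 0.39, Salmon 0.99.0, DESeq2 and GRCm38. The transcript set, filter and strand use are not given in the sources used here, and shared reads of similar or overlapping genes are split by estimation. Every gene in the table has at least 10 counts in all. Rounding before testing changed 0 values.

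Counts were tested with edgeR 4.0.16 in R 4.3.3 (TMM, edgeR's expression filter, quasi-likelihood test, embryo as block, Benjamini-Hochberg adjustment, threshold 0.05). SE is the log2 fold change divided by the root of the F statistic. CPM uses TMM library sizes, and log2 CPM a prior count of 2. The labels pair the teeth by embryo, and the 2 teeth of embryos 1, 2, 3, 4 and 6 deviated from their group means with a correlation of 0.319, 0.208, -0.0389, 0.17 and 0.313, while the median for teeth of different embryos was -0.0463. Teeth of a group differed beyond sampling noise (chi-square per degree of freedom 4.68 to 19.4). Symbols, places and exon lengths are from GENCODE mouse release 21, promoters from RefSeq.

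This comparison was simulated 3 times over 14504 genes. Of 100 genes changed by a log2 of 1, 80% were recovered, and of 100 changed by 0.5, 44%. Of the calls, 9.05% were unchanged genes, which is more than the threshold of 0.05 aims at. No other genes were changed and no differences between embryos were simulated, whereas 11.5% of the genes tested passed in the data. The rates therefore need not hold for the data.

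The genes and lists were chosen with earlier results of these data known. Named were the 10 genes, the listed pathway genes and neighbours past the threshold, and the 3 genes most correlated with each of the 10 that passed, and a few genes that these rules name are not reported here. Other genes serve as context, chosen after their values were seen. Alternatives were the fit without the block, DESeq2 1.42.0 size factors, its Wald test, limma-voom (limma 3.58.1), no filter, at least 10 counts in every sample, and leaving out each embryo.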

Additional observations from a re-analysis of the deposited data

Results flagged for a closer look

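Cyp26c1 in embryo 6 was far above the rest of the IGF1 group, at 8.42 CPM against 0.475 to 2.59 in the other 4 IGF1 teeth. The gap to the nearest tooth was 0.734 of the whole range, above the limit of 0.71 for 5 samples. It was the only such tooth in 20 groups (10 genes in 2 groups each), where about 1 would by chance. The value rests on 59 counts, against 4 to 9 in the other IGF1 teeth.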

How the results depend on the processing

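Of 109 values of the 10 genes over the alternatives, 85 kept their direction and side of the threshold, 18 lost the call, 3 gained it and 3 reversed. Cyp26b1, Aldh1a3 and Crabp2 passed in every alternative run. The reversals were those of Aldh1a2, which never passed, with log2 fold changes of 0.052 with no replicate block, and of -0.166 (without embryo 4) to 0.181 (without embryo 6) when each embryo was left out, 0.034 without embryo 3. With no replicate block 5 of the 10 genes passed, Cyp26a1 and Dhrs3 dropping out, and 887 genes of all passed in place of 1666. Leaving out each embryo gave 3 (without embryo 4) to 6 of the 10 genes and 986 (without embryo 4) to 1602 genes of all, with fewer samples in each fit. Cyp26c1 was not tested with at least 10 counts in every sample. The lowest counts per tooth of Cyp26a1 and Cyp26c1 were 10 and 4, and the part of depth in their results was not tested.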
